A study of Mus musculus with 22 samples.

Results

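The genes described here make, remove and sense extracellular adenosine or act on cyclic AMP inside the cell: Entpd1, Nt5e, Ada, Dpp4, Adora2a, Adcy7, Pde3b, Pde4b, Pde4d and Crem. They were chosen by name, with no measured value in the rule but with earlier results of these data known. They are 10 of the 55011 genes in the count table. All 10 were among the 15462 genes with enough counts to be tested. RNA came from CD4+ T cells recovered from lymph nodes at day 50 of a transfer experiment in scurfy mice of the C57BL/6 strain, which lack working Foxp3 and develop a fatal autoimmune disease. Cells of the FOXP3 group were CD4+ T cells of scurfy donors given a vector with human FOXP3 and LNGFR, a truncated nerve growth factor receptor that serves as a surface tag. Cells of the LNGFR group came from the same kind of donor and carried the tag alone. In the WT Treg group, the injected cells were CD4+CD25+ cells with the CD45.1 allele, named wild-type Treg in the titles. All recipients were scurfy, received cyclophosphamide at 50 mg/kg when 10 days old and cells on day 14, and were then given human IL-2 at 1000 IU/g daily for 5 days and once a week afterwards. The genotype field reads scurfy with FOXP3 knocked out for every sample, WT Treg included. Sorting was on the tag or on CD45.1, with 1000 cells per library. The titles give 11 codes (5 FOXP3, 3 LNGFR, 3 WT Treg) with 2 libraries each, and the 2 were summed to 1 replicate. Nothing in the labels ties a code to a mouse, so the tests measure the spread between codes, which may in part be technical. The first letter of a code is G in all of LNGFR, F or N in FOXP3, and E, G or L in WT Treg. Between FOXP3 and LNGFR, what it marks cannot be told apart from the vector.

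Activated or damaged cells release ATP. CD39, the product of Entpd1, removes phosphates from ATP and ADP down to AMP, and CD73, the product of Nt5e, turns AMP into adenosine. Treg carry both enzymes, and adenosine binds the receptor encoded by Adora2a on neighbouring T cells, which raises cyclic AMP through a stimulatory G protein and adenylyl cyclase. Cyclic AMP activates protein kinase A, which dampens T cell receptor signalling and switches on genes through the CREB family, while phosphodiesterases (PDE) break cyclic AMP down.

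Levels are given as CPM, counts per 1000000 counts of a library scaled by the trimmed mean of M values (TMM). The 11 codes held 1154626 to 10376164 gene counts. In 3 weak libraries, E2#1 and E2#2 of WT Treg and G1#2 of LNGFR, the totals were only 332570 to 641980 counts, and 29.1% to 58.7% of counts fell on the Gm10800 family of gene models, against at most 4.50% in the other 19. T-cell genes were present throughout: Cd3e lay between 307 CPM (E2) and 801 CPM (G4), Cd4 between 187 and 724 CPM, and Cd8a at 5.26 CPM or below. Cd8b1, the other gene of the CD8 list, was at 33.8 CPM in G4 and 24.9 CPM in L1, against 3.92 to 14.2 CPM in the other codes, so the CD8 sum was highest in these 2 WT Treg codes, and its part in the results was not tested. The 11 genes of a B-cell list, all detected in every group, summed to 11745 CPM in FOXP3 code N3 and 4456 CPM in LNGFR code G1, against 266 to 1309 CPM in the other 9 codes. Summed plasma-cell genes reached 689 CPM in N3 and 629 CPM in G1. Mouse Foxp3, the gene disabled in scurfy, was at 1305 CPM in WT Treg, 228 CPM in FOXP3 and 86.1 CPM in LNGFR on average, and its difference between FOXP3 and LNGFR missed the threshold (1.403 ± 0.43 on the log2 scale, edgeR adjusted p = 0.21). It was higher in WT Treg than in LNGFR, at 3.92 ± 0.52 (adjusted p = 0.00191), and lower in FOXP3 than in WT Treg, at -2.52 ± 0.40 (adjusted p = 0.0192). The scurfy allele is a frameshift whose transcript can remain, so a count per gene does not check the labels, and whether reads of human FOXP3 fell on it was not tested. In RNA from bulk cells, a smaller share of cells with a transcript and less of it per cell cannot be told apart.

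In the fit of all 3 groups none of the 10 genes passed an adjusted p of 0.05 in any comparison (edgeR quasi-likelihood test with Benjamini-Hochberg adjustment). That threshold called 0.543% of all tested genes in FOXP3 against LNGFR, 1.3% in WT Treg against LNGFR and 0.259% in FOXP3 against WT Treg. At an unadjusted p under 0.05 the counts were 1, 4 and 1 of the 10, against 1595, 2290 and 2547 of the 15462 tested. The median log2 fold change of the 10 was 0.00, -0.01 and -0.37, beside -0.02, 0.08 and 0.01 over all tested genes. The comparisons are not independent, since each pair of them shares a group. The differences nearest the threshold were those of Adora2a and Crem, and the gene whose level depended most on a single code was Pde3b.

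**Figure D1:**
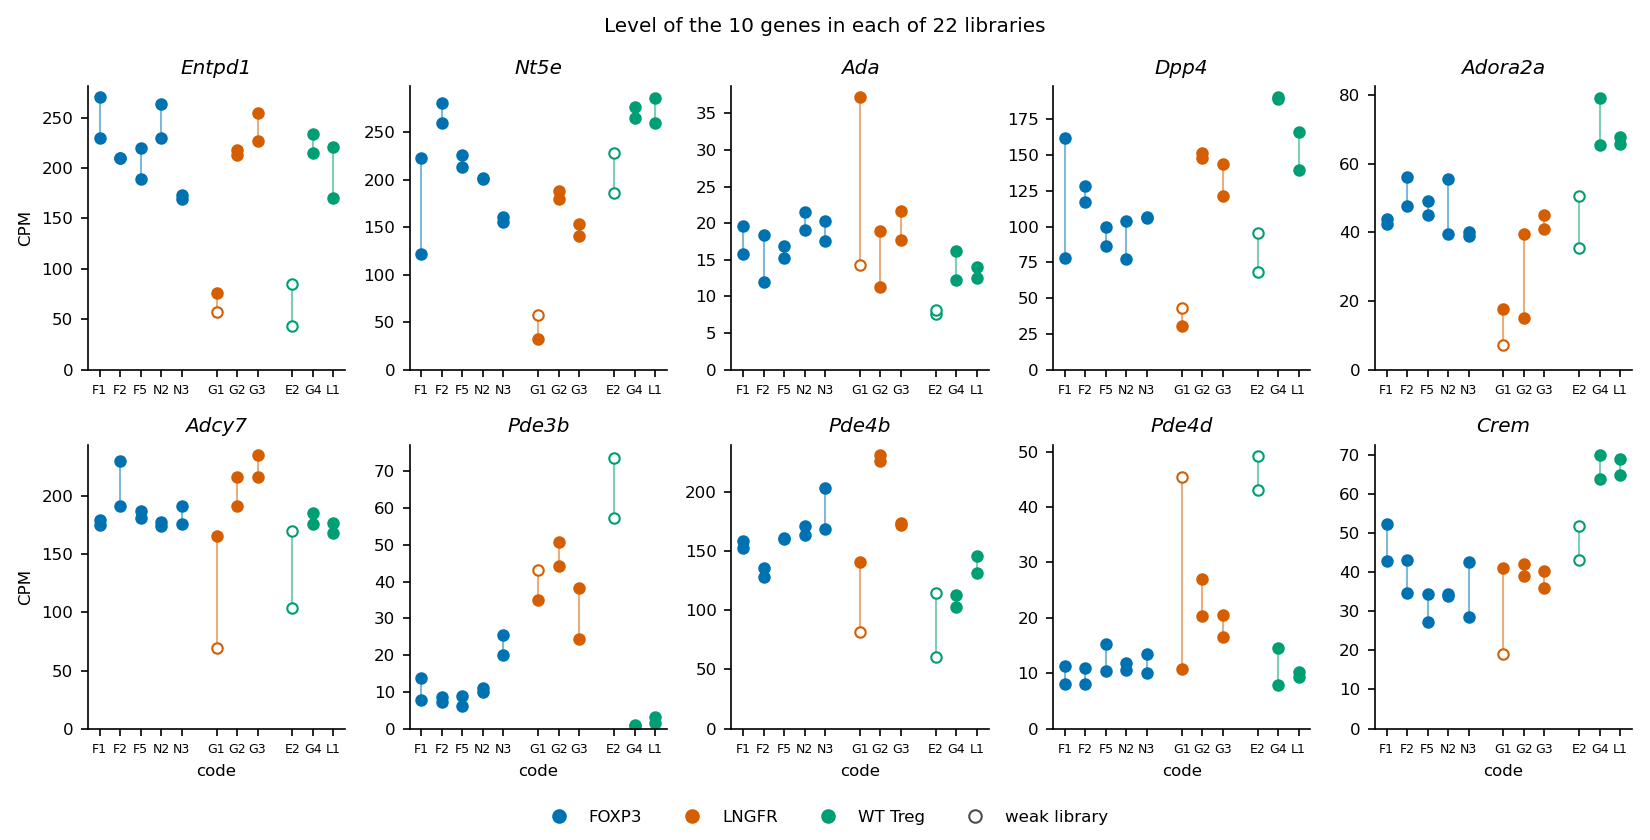
Level of each of the 10 genes (CPM, linear axis from 0) in all 22 libraries, with the 2 libraries of a code joined by a line and the 3 weak libraries drawn as open circles. Pde3b stands between 57.4 and 73.5 CPM in the 2 libraries of E2 and at 3.23 CPM or below in the other 4 WT Treg libraries.

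Between genes, levels were compared per kb of exon sequence, joined over all annotated transcripts of a gene. In FOXP3 cells the order was Entpd1 (38.3 ± 5.63 CPM per kb, SD, n = 5), Adcy7 (27.4 ± 2.15), Nt5e (23.3 ± 5.07), Dpp4 (16.4 ± 2.23), Pde4b (14.98 ± 1.89), Adora2a (14.8 ± 1.45), Ada (8.70 ± 1.03), Crem (6.23 ± 1.07), Pde3b (1.28 ± 0.69) and Pde4d (0.91 ± 0.12). Each overlapped the next over codes except Adora2a with Ada and Crem with Pde3b. In LNGFR cells the first places were again Entpd1 (30.7 ± 16.9 CPM per kb, n = 3) and Adcy7 (27.3 ± 7.19), and Pde3b (3.96 ± 0.94) and Pde4d (1.57 ± 0.42) were the last. In WT Treg the highest mean was that of Nt5e (28.9 ± 4.12 CPM per kb, n = 3), followed by Entpd1 (28.6 ± 15.2), whose codes overlapped. By mean, the 2 ectonucleotidases and the main cyclase thus held the top 3 places in FOXP3 and WT Treg cells. Pde3b and Pde4d had the lowest 2 means in all 3 groups. In WT Treg, however, Adcy7 overlapped Dpp4 and Ada overlapped Pde3b over codes.

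Because cyclic AMP acts on genes through CREB, the promoters were searched for the cyclic AMP response element, as the full palindrome TGACGTCA and as the short site TGACG on either strand (each full palindrome also holds the short site). RefSeq promoters on GRCm38.p6, 250 bases before to 50 after a transcript start, were found for 7 of the 10 genes, 13 promoters in all. Pde3b, Adora2a and Crem had none. The full palindrome was in 0 of the 13, and in 1.79% of 32851 promoters of all genes. The short site was in 4 of the 13, in 3 genes, and in 20.8% of all promoters. The windows of 31 bases around these sites are printed 5′ to 3′ on the strand of the gene, with the site in capitals as CGTCA because it lies on the opposite strand. They are shown to let the reader see the flanks of each match, and a match of 5 letters is no proof of binding. Each start named is that of the transcript whose promoter holds the site. For Adcy7 and Pde4b that start lies inside the gene, and their other promoters held no short site.
Adcy7, chr8:88282951-88282981, plus strand, site ending 24 bases before the start: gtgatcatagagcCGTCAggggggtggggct
Entpd1, chr19:40612218-40612248, plus strand, site ending 131 bases before the start: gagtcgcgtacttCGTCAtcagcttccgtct
Entpd1, chr19:40659574-40659604, plus strand, site ending 179 bases before another start: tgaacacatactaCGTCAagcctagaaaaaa
Pde4b, chr4:102421508-102421538, plus strand, site ending 30 bases before the start: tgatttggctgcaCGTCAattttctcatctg

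Entpd1 (ENSMUSG00000048120.16, GRCm38 chr19:40612366-40741602, plus strand) was at 249.5, 207, 202, 239.6 and 171 CPM in FOXP3 codes F1, F2, F5, N2 and N3. In LNGFR codes G1, G2 and G3 it was at 63.2, 213 and 238 CPM, and in WT Treg codes E2, G4 and L1 at 63.2, 223 and 192 CPM. G1 and E2 were low and the other 9 codes overlapped across all groups. The fitted log2 fold change was 0.32 ± 0.44 (SE) for FOXP3 against LNGFR (95% interval -0.64 to 1.27, adjusted p = 0.82) and -0.09 ± 0.49 for WT Treg against LNGFR. Without codes E2, G1 and N3 these differences were -0.01 ± 0.12 and -0.12 ± 0.14. The low level in G1 was not only in its weak library, since its deeper library G1#1 was at 76.3 CPM.

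Nt5e (ENSMUSG00000032420.8, chr9:88327197-88372092, plus strand) was at 165, 266, 216, 197 and 158 CPM in FOXP3, at 31.6, 180.2 and 145 CPM in LNGFR (G1, G2, G3) and at 208, 270.1 and 268 CPM in WT Treg (E2, G4, L1). Every WT Treg code lay above every LNGFR code, while FOXP3 overlapped both other groups. The log2 fold change of WT Treg against LNGFR was 1.06 ± 0.48 (95% interval 0.02 to 2.11, adjusted p = 0.329), and of FOXP3 against LNGFR 0.75 ± 0.44 (adjusted p = 0.614). With E2, G1 and N3 left out (4, 2 and 2 codes remain), Nt5e was higher in WT Treg than in LNGFR, at 0.73 ± 0.19 on the log2 scale (adjusted p = 0.0376). The same settings called 10.7% of all genes in FOXP3 against LNGFR, 7.66% in WT Treg against LNGFR and 7.42% in FOXP3 against WT Treg. The ratio of Entpd1 to Nt5e CPM ran from 0.78 to 1.52 in FOXP3, from 1.18 to 2 in LNGFR and from 0.30 to 0.83 in WT Treg.

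Ada (ENSMUSG00000017697.3, chr2:163726584-163750239, minus strand) encodes adenosine deaminase, which turns adenosine into inosine. It was at 17.7, 14.8, 15.9, 19.7 and 18.9 CPM in FOXP3, 28.9, 15.8 and 19.4 CPM in LNGFR (G1, G2, G3) and 7.9, 14.2 and 13.1 CPM in WT Treg (E2, G4, L1). All WT Treg codes lay below all codes of the other groups. The lowest of them, E2, rested on 6 counts. The log2 fold change was -0.79 ± 0.31 for WT Treg against LNGFR (95% interval -1.45 to -0.13, adjusted p = 0.266) and 0.50 ± 0.28 between FOXP3 and WT Treg (adjusted p = 0.407). The difference from LNGFR was smaller, -0.37 ± 0.25, without E2, G1 and N3, the codes that held the lowest and highest levels of Ada among them.

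Dpp4 (ENSMUSG00000035000.8, chr2:62330073-62412231, minus strand) encodes CD26, a surface peptidase that trims chemokines and, in human cells, anchors adenosine deaminase. Its exons overlap those of Gm13561 on the opposite strand over 232 bp, but that gene held 43 counts in all. Dpp4 was at 114, 121, 92.1, 87.4 and 106 CPM in FOXP3, 28.2, 147 and 131 CPM in LNGFR (G1, G2, G3) and 81.6, 189 and 150.4 CPM in WT Treg (E2, G4, L1). G1 was again the lowest code, and the groups overlapped in all 3 comparisons. With E2, G1 and N3 left out, FOXP3 was lower than WT Treg, at -0.72 ± 0.15 on the log2 scale (adjusted p = 0.0126), against -0.45 ± 0.43 with all codes (adjusted p = 0.645). Between FOXP3 and LNGFR the sign was not stable, at 0.02 ± 0.43 with all codes and -0.43 ± 0.15 without these 3 (adjusted p = 0.0938).

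Adora2a (ENSMUSG00000020178.6, chr10:75316877-75334784, plus strand) encodes the adenosine receptor that couples to cyclic AMP production. Its level was 42.7, 51.0, 45.9, 47.5 and 39.4 CPM in FOXP3, 13.8, 23.8 and 42.4 CPM in LNGFR (G1, G2, G3) and 43.4, 72.1 and 65.7 CPM in WT Treg (E2, G4, L1). All 3 WT Treg codes lay above all 3 LNGFR codes, but E2, from only 33 counts, was at 43.4 against 42.4 CPM in G3. FOXP3 overlapped both groups. Group means were 45.3 ± 4.45 CPM (SD, n = 5), 26.7 ± 14.5 CPM (n = 3) and 60.4 ± 15.05 CPM (n = 3). The log2 fold change of WT Treg against LNGFR was 1.18 ± 0.36 (95% interval 0.41 to 1.95, p = 0.00556, adjusted p = 0.163 by edgeR). For FOXP3 against LNGFR it was 0.75 ± 0.32 (0.05 to 1.44, adjusted p = 0.443), and between FOXP3 and WT Treg it was -0.43 ± 0.31 (adjusted p = 0.535). The sign held under the other settings tried, with values from 0.88 to 1.71 for WT Treg against LNGFR, and without E2, G1 and N3 this difference was 1.05 ± 0.23 and passed (adjusted p = 0.014). Libraries of 1 code differed for this gene: G2#1 was at 15.1 CPM and G2#2 at 39.4 CPM.

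Adora2a made up nearly all adenosine receptor transcripts. Per kb it took 97.3% ± 0.92 of the summed level of the 4 receptors in FOXP3, 89.9% ± 12.9 in LNGFR and 91.8% ± 9.71 in WT Treg, with the lowest shares in G1 (75.0%) and E2 (80.6%). Adora1 and Adora2b were too low to be tested, with 28 and 26 counts over all libraries. Adora3 did not exceed 9.21 CPM in any code, and that highest value was in E2.

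Adcy7 (ENSMUSG00000031659.13, chr8:88272403-88329962, plus strand) encodes an adenylyl cyclase found mainly in blood cells, which makes cyclic AMP from ATP. It was at 175, 209, 181, 173 and 184 CPM in FOXP3, 129.8, 198 and 223 CPM in LNGFR (G1, G2, G3) and 138, 181 and 170.2 CPM in WT Treg (E2, G4, L1). The groups overlapped throughout. Its log2 fold change was 0.00 ± 0.25 for FOXP3 against LNGFR (95% interval -0.55 to 0.55), -0.17 ± 0.29 for WT Treg against LNGFR (-0.79 to 0.45) and 0.17 ± 0.26 for FOXP3 against WT Treg (-0.38 to 0.73). Adcy7 had the largest share of the 10 cyclases per kb in every code, 85.1% ± 2.00 in FOXP3, 71.5% ± 8.32 in LNGFR and 75.3% ± 11.3 in WT Treg.

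Pde3b (ENSMUSG00000030671.9, chr7:114415281-114539251, plus strand) encodes a phosphodiesterase whose breakdown of cyclic AMP is slowed by cyclic GMP. It is known as a gene that Foxp3 represses in Treg. In FOXP3 codes F1, F2, F5, N2 and N3 it was at 10.2, 7.82, 7.55, 10.2 and 22.8 CPM, and in LNGFR codes G1, G2 and G3 at 31.3, 45.9 and 31.0 CPM. All FOXP3 codes lay below all LNGFR codes. In WT Treg it was at 0.81 CPM in G4 and 2.40 CPM in L1, from 5 and 18 counts, but at 65.8 CPM in E2, the highest level of any code, from 50 counts. With all codes the log2 fold change was -1.63 ± 0.88 for FOXP3 against LNGFR (95% interval -3.53 to 0.28, adjusted p = 0.582), -1.03 ± 1.11 for WT Treg against LNGFR (adjusted p = 0.701) and -0.60 ± 1.01 between FOXP3 and WT Treg (adjusted p = 0.807).

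A single code set these Pde3b tests. Without E2, the log2 fold change of WT Treg against LNGFR was -4.44 ± 0.62 and passed (adjusted p = 0.00308, where 1.86% of all genes were called). Without it the sign of FOXP3 against WT Treg turned, to 2.82 ± 0.57 (adjusted p = 0.0586), and FOXP3 against LNGFR stayed at -1.62 ± 0.38 (adjusted p = 0.0597). Without the 3 weak libraries the 3 values were -4.48 ± 0.63 for WT Treg against LNGFR (adjusted p = 0.00376), 2.82 ± 0.58 between FOXP3 and WT Treg (adjusted p = 0.0592) and -1.66 ± 0.39 for FOXP3 against LNGFR (adjusted p = 0.0537). These settings called 2.07%, 0.43% and 1.63% of all genes. Without E2, G1 and N3 all 3 passed. Pde3b was lower in FOXP3 than in LNGFR, at -2.11 ± 0.28 on the log2 scale (adjusted p = 0.000482). It was lower in WT Treg than in LNGFR, at -4.52 ± 0.42 on the log2 scale (adjusted p = 4.26e-05). It was higher in FOXP3 than in WT Treg, at 2.41 ± 0.40 on the log2 scale (adjusted p = 0.00341). This setting called 10.7%, 7.66% and 7.42% of all genes in these comparisons. The codes left out include the highest Pde3b levels of WT Treg (E2, 65.8 CPM) and of FOXP3 (N3, 22.8 CPM). These 3 calls are therefore no independent support for the differences.

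Library quality and B-cell genes were set beside Pde3b. E2#1 and E2#2, at 73.5 and 57.4 CPM, had the highest shares of counts on the Gm10800 family, and the weak library G1#2 was at 43.1 CPM. In the LNGFR libraries that were not weak Pde3b lay between 24.5 and 50.6 CPM, and in the FOXP3 libraries between 6.13 and 25.5 CPM. The highest FOXP3 level was in N3, the code with 11745 CPM of B-cell genes, and B-cell sums were 1166 to 4456 CPM in LNGFR against 266 to 466.2 CPM in WT Treg. F2 and F1, of the FOXP3 group, had B-cell sums of 1309 and 1012 CPM with Pde3b at 7.82 and 10.2 CPM. G2 and G3, of the LNGFR group, had 1166 and 1248 CPM with Pde3b at 45.9 and 31.0 CPM. E2, with the highest Pde3b, had a B-cell sum of 296 CPM. The part of B-cell RNA and of the Gm10800 share in these levels was not tested.

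**Figure D2:**
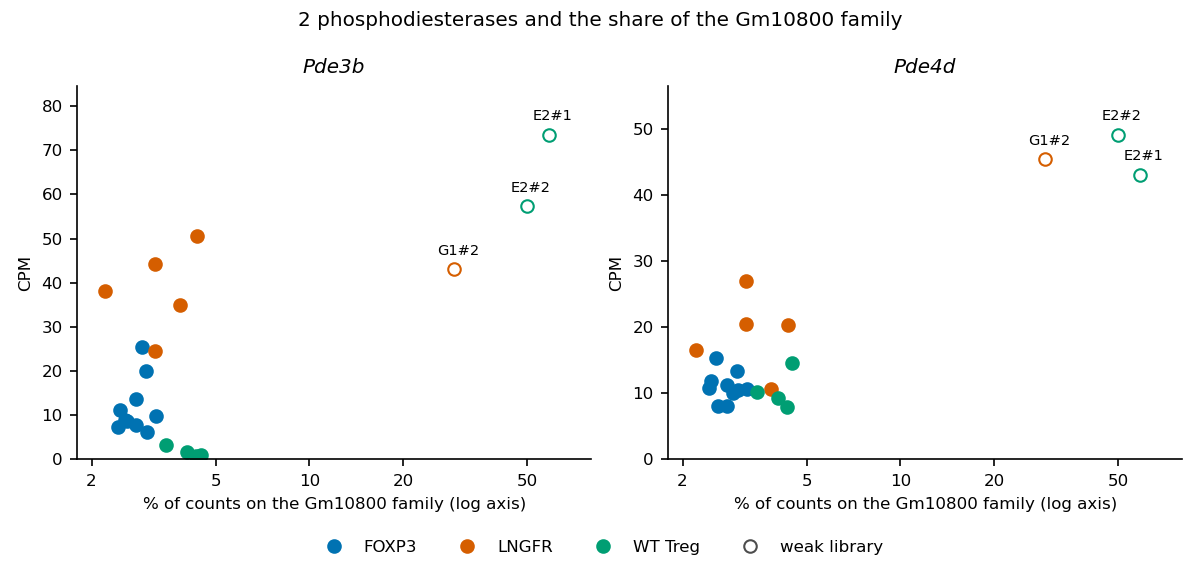
Level of Pde3b and Pde4d (CPM, linear axis) in each of 22 libraries against the percentage of its counts on the Gm10800 family (log axis), with open circles for the 3 weak libraries. For Pde4d the weak libraries stand apart at 43.1 to 49.2 CPM, whereas for Pde3b LNGFR libraries with a low share also reach 50.6 CPM.

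Pde4d (ENSMUSG00000021699.17, chr13:108449948-109953461, plus strand) and Pde4b (ENSMUSG00000028525.16, chr4:102087543-102607259, plus strand) encode phosphodiesterases specific for cyclic AMP, of which Pde4b is known to act at the T cell receptor. Pde4d was at 9.75, 9.40, 12.9, 10.9 and 11.65 CPM in FOXP3, 14.1, 24.2 and 18.2 CPM in LNGFR (G1, G2, G3) and 46.1, 11.2 and 9.59 CPM in WT Treg (E2, G4, L1). FOXP3 lay wholly below LNGFR, and E2 stood far above the other WT Treg codes. The log2 fold change of FOXP3 against LNGFR was -0.79 ± 0.42 (95% interval -1.69 to 0.11, adjusted p = 0.567), and -0.98 ± 0.23 without E2, G1 and N3 (adjusted p = 0.0167). For WT Treg against LNGFR it was 0.07 ± 0.50 with all codes, -0.86 ± 0.31 without E2 and -1.03 ± 0.28 without the 3 codes (adjusted p = 0.0435), so the direction turned with E2. Within G1, the deeper library was at 10.7 CPM and the weak one at 45.4 CPM, so that G1 exceeded FOXP3 only through its weak library.

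Pde4b, the most abundant of the 3, was at 154, 130.2, 157, 164 and 186 CPM in FOXP3, 113, 225 and 171 CPM in LNGFR (G1, G2, G3) and 86.9, 107 and 137 CPM in WT Treg (E2, G4, L1). The groups overlapped in every comparison, FOXP3 and WT Treg by 130.2 against 137 CPM. Its log2 fold change was -0.61 ± 0.32 for WT Treg against LNGFR (95% interval -1.29 to 0.07, adjusted p = 0.38) and -0.10 ± 0.28 for FOXP3 against LNGFR. Without E2, G1 and N3 the former was -0.69 ± 0.18 and passed (adjusted p = 0.0305).

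The make-up of the phosphodiesterase family shows the same levels as shares. Of the summed CPM per kb of 14 cyclic AMP phosphodiesterases, Pde4b was 55.2% ± 7.10 in FOXP3 and 44.4% ± 7.17 in LNGFR, and 47.4% and 52.8% in WT Treg codes G4 and L1 but 15.8% in E2. Pde3b was 3.46% to 6.30% of the family in FOXP3, 9.91% to 11.8% in LNGFR, 0.41% and 1.07% in G4 and L1 and 13.9% in E2. Pde7a, a further cyclic AMP phosphodiesterase of T cells, was 3.92% to 13.1% in FOXP3, 14.6% to 17.6% in LNGFR and 5.84% to 9.14% in WT Treg. The family's sum was highest in E2, at 52.0 CPM per kb, against 21.5 and 24.5 in the other WT Treg codes.

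**Figure D3:**
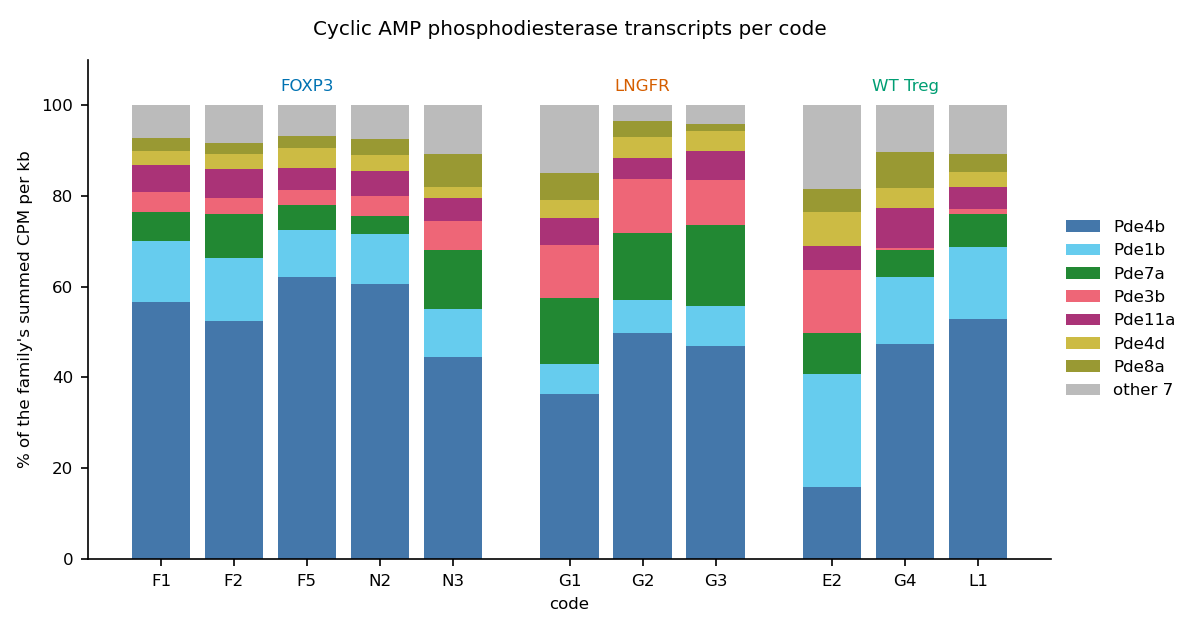
Share of each phosphodiesterase in the family's summed CPM per kb (%), 1 stacked bar per code. The Pde3b band is 9.91% to 13.9% in the 3 LNGFR codes and E2 and 6.30% or less in the other 7 codes.

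Crem (ENSMUSG00000063889.16, chr18:3266048-3337748, minus strand) encodes CREM, a CREB family factor whose short form ICER is induced by cyclic AMP and represses cytokine genes. Counts per gene do not separate ICER from the longer forms. Its exons overlap those of Gm6225 on the other strand over 472 bp, and Gm6225 held 1123 counts, so reads of the 2 may be mixed. Crem was at 46.5, 38.5, 29.8, 33.5 and 35.4 CPM in FOXP3, 32.3, 40.3 and 37.6 CPM in LNGFR (G1, G2, G3) and 47.4, 66.6 and 65.8 CPM in WT Treg (E2, G4, L1). All WT Treg codes lay above all FOXP3 and LNGFR codes, but E2, from only 36 counts, was at 47.4 against 46.5 CPM in F1. The log2 fold change was -0.72 ± 0.23 for FOXP3 against WT Treg (95% interval -1.21 to -0.23, p = 0.00711, adjusted p = 0.126 by edgeR), 0.72 ± 0.26 for WT Treg against LNGFR (0.16 to 1.28, adjusted p = 0.239) and 0.00 ± 0.23 for FOXP3 against LNGFR (-0.50 to 0.49). Over all settings it ran from -0.87 to -0.48 for FOXP3 against WT Treg and from 0.56 to 0.86 for WT Treg against LNGFR. Without E2, G1 and N3 both differences passed, at -0.85 ± 0.17 (adjusted p = 0.0118) and 0.77 ± 0.21 (adjusted p = 0.0408).

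**Figure D4:**
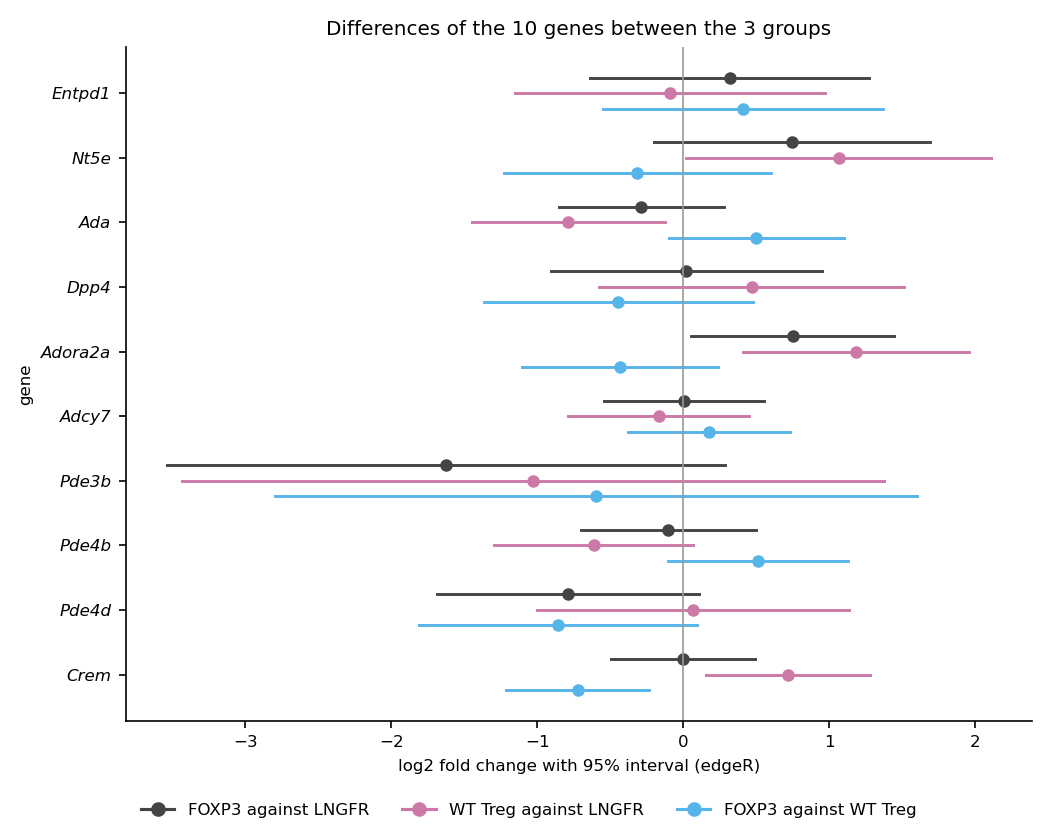
Log2 fold change of the 10 genes in the 3 comparisons, with the 95% interval of the edgeR fit to all codes as a line. The intervals that leave out 0 are those of Adora2a in FOXP3 against LNGFR, of Nt5e, Ada, Adora2a and Crem in WT Treg against LNGFR and of Crem in FOXP3 against WT Treg, and none of these passed after adjustment.

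Codes of the compared groups did not overlap for Pde3b and Pde4d in FOXP3 against LNGFR (2 of 10 genes, against 9.02% of all tested genes). They did not overlap for Nt5e, Ada, Adora2a and Crem in WT Treg against LNGFR (4 of 10, against 16.6%) and for Ada and Crem in FOXP3 against WT Treg (2 of 10, against 12.4%). Nothing about the 10 as a set was drawn from these counts. Other tests on the same codes called more genes overall. DESeq2 called Adora2a and Crem higher in WT Treg than in LNGFR (adjusted p = 0.0137 and 0.0314, with 5.98% of genes called) and Crem lower in FOXP3 than in WT Treg (adjusted p = 0.00446, 7.31%). With limma, voom and quality weights, Pde3b and Pde4d were lower in FOXP3 than in LNGFR (6.78% of genes called). The same limma fit had Adora2a and Crem higher and Pde3b and Pde4d lower in WT Treg than in LNGFR (5.61%), and Crem lower and Pde3b higher in FOXP3 than in WT Treg (6.89%). With the 22 libraries as separate samples, Adora2a, Crem and Nt5e were higher in WT Treg than in LNGFR (6.36%) and Crem was lower in FOXP3 than in WT Treg (7.61%). That fit counts the 2 libraries of a code as independent replicates, which the labels do not show, so it can call too many genes. Without the filter on low counts, Pde3b was lower in FOXP3 than in LNGFR (adjusted p = 0.025, 0.701%).

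The wider list held 100 genes of adenosine and cyclic AMP biology, the 10 included, and 82 were tested. In FOXP3 against LNGFR 1 was higher and 1 lower, in WT Treg against LNGFR 1 was lower, and in FOXP3 against WT Treg 1 was higher. Of all tested genes, 0.543%, 1.3% and 0.259% were called in these comparisons. The median log2 fold change of the list was -0.06, 0.04 and -0.02, beside the medians of -0.02, 0.08 and 0.01 over all tested genes. These calls fell on 3 genes, none of them among the 10.

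Adcy6 encodes a minor adenylyl cyclase of these cells. It was at 1.76, 3.17, 3.34, 1.56 and 2.83 CPM in FOXP3, 13.8, 20.97 and 18.2 CPM in LNGFR (G1, G2, G3) and 9.21, 0.81 and 1.33 CPM in WT Treg (E2, G4, L1). All LNGFR codes lay above all other codes, and the WT Treg levels rested on 7, 5 and 10 counts. It was lower in FOXP3 than in LNGFR, at -2.80 ± 0.56 on the log2 scale (adjusted p = 0.0442), with -2.81 ± 0.75 in WT Treg against LNGFR (adjusted p = 0.107). Without the 3 weak libraries both passed, at -2.60 ± 0.41 (adjusted p = 0.00938) and -3.81 ± 0.64 (adjusted p = 0.0099). The call in FOXP3 against LNGFR was lost when any of F1, F2, F5, N2, G1, G2, G3 or L1 was left out (adjusted p from 0.0593 to 0.297), with size factors in place of TMM (0.0566) and without the Gm10800 family (0.0534). Of the 6 cyclases tested, 5 had a value below 0 in FOXP3 against LNGFR, with a median of -2.001. Of all 15462 tested genes, 7903 were below 0. Among the 5 cyclases, Adcy3 was at only -0.002, and Adcy1 and Adcy9 had low levels. Adcy1 averaged 0.66 CPM in FOXP3 and 2.46 CPM in LNGFR, and Adcy9 0.68 and 3.27 CPM. Adcy4, chosen after its values were seen, was at -2.35 ± 0.52 (adjusted p = 0.0687) and passed without the 3 weak libraries (adjusted p = 0.0116). Adcy7 and Adcy3, the most abundant of the family, were both at 0.00.

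Popdc2 encodes a membrane protein of the Popeye family, which binds cyclic AMP. It was at 17.4, 22.3, 15.4, 17.1 and 4.90 CPM in FOXP3, 3.70, 2.40 and 2.28 CPM in LNGFR (G1, G2, G3) and 5.26, 5.18 and 4.93 CPM in WT Treg (E2, G4, L1). The LNGFR levels rested on 11, 15 and 19 counts and those of WT Treg on 4, 32 and 37. F1, F2, F5 and N2 lay above every other code, and N3, rich in B-cell genes, was at the level of WT Treg. It was higher in FOXP3 than in LNGFR, at 2.50 ± 0.46 on the log2 scale (adjusted p = 0.0334). The call held in all 9 other settings and was lost when any of F1, F2, F5, N2, G1, G2 or G3 was left out (adjusted p from 0.0634 to 0.197).

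Vipr1 encodes a receptor for vasoactive intestinal peptide, which raises cyclic AMP. It was at 14.7, 22.3, 25.1, 32.3 and 10.7 CPM in FOXP3, 16.1, 35.1 and 23.7 CPM in LNGFR (G1, G2, G3) and 2.63, 2.26 and 4.26 CPM in WT Treg (E2, G4, L1). All WT Treg codes lay below all others, from 2, 14 and 32 counts. It was lower in WT Treg than in LNGFR, at -2.97 ± 0.49 on the log2 scale (adjusted p = 0.00949) and higher in FOXP3 than in WT Treg, at 2.71 ± 0.46 on the log2 scale (adjusted p = 0.0259), while FOXP3 against LNGFR gave -0.26 ± 0.37. The former call was lost without G2, G4 or L1 (adjusted p from 0.0589 to 0.0823). The latter was lost without F1, F2, F5, N2, G3, E2 or L1 (adjusted p from 0.0509 to 0.07) and without the 3 weak libraries (0.0586).

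**Figure D5:**
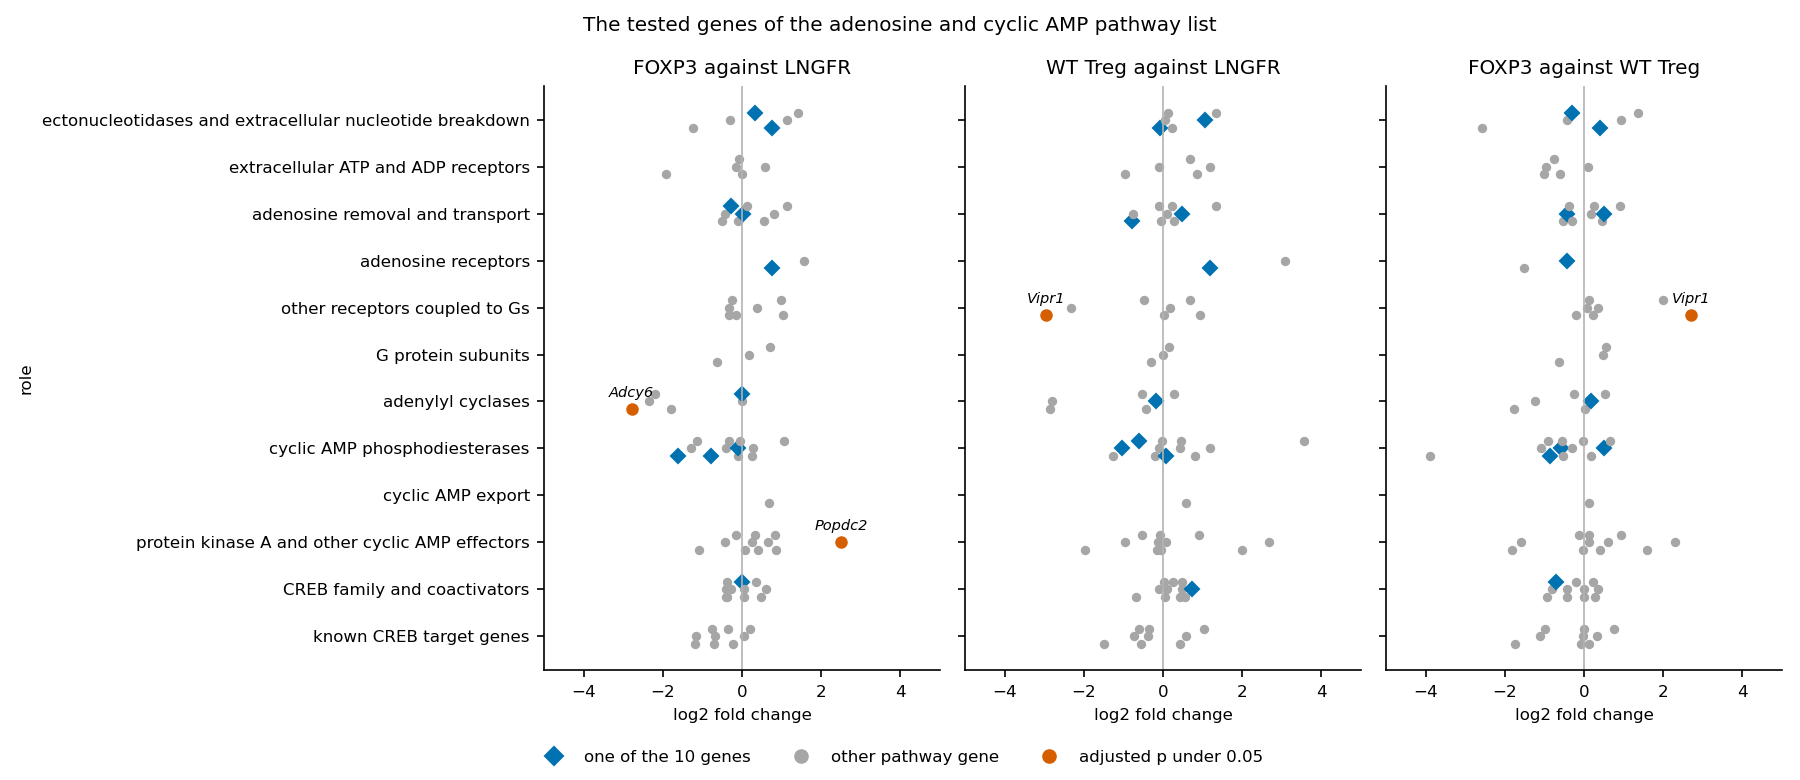
Log2 fold change of the 82 tested genes of the adenosine and cyclic AMP list, by role (rows) and comparison (panels), with the 10 genes as diamonds and genes past an adjusted p of 0.05 in orange. The orange points are Adcy6 and Popdc2 in FOXP3 against LNGFR and Vipr1 in the other 2 comparisons.

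No other gene of the list passed in the edgeR fit to all codes, though some other settings called more of them. Among the most abundant of each role were the ATP receptors P2rx7 (92.7 CPM over the 11 codes) and P2rx4 (49.2 CPM), and Slc29a1 (102 CPM), a nucleoside transporter. P2rx7 had the largest mean in WT Treg, 142 CPM, against 71.0 CPM in FOXP3, a log2 fold change of -1.02 ± 0.38 (adjusted p = 0.192). Of other receptors coupled to the stimulatory G protein, Ptger4 (107 CPM) and Gpr65 (51.6 CPM), receptors for prostaglandin E2 and for protons, led. Gnai3 (301 CPM) and Gnai2 (139 CPM) encode inhibitory G protein subunits. Gnas, for the stimulatory subunit, was counted at only 3.77 CPM, and the reason was not tested. It was named after its value was seen. In CPM over the 11 codes Adcy3 (23.3 CPM) and Pde7a (25.3 CPM) followed Adcy7 and Pde4b. Per kb, Pde1b had a larger mean share of its family than Pde7a in FOXP3 (11.9% against 7.72%) and WT Treg (18.5% against 7.42%), and a smaller one in LNGFR (7.59% against 15.7%). Pde1b was chosen after its values were seen. The exporter Abcc4 was at 60.4 CPM.

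Prkar1a, a regulatory subunit of protein kinase A, was the most abundant effector at 867 CPM, before the catalytic subunit Prkacb at 131 CPM. The coactivators Crebbp (170.3 CPM) and Ep300 (123 CPM) did not pass, with Crebbp at 0.04 ± 0.24 in FOXP3 against LNGFR (95% interval -0.48 to 0.56). The CREB targets Dusp1 (1528 CPM) and Fos (633 CPM) are also early genes of T cell activation. Of the 9 targets listed, 7 had values below 0 in FOXP3 against LNGFR, with a median of -0.68. In WT Treg against LNGFR 6 of 9 were below 0 (median -0.38), and in FOXP3 against WT Treg 5 of 9 (median -0.02). Of all 15462 tested genes, 7903, 6971 and 7669 were below 0 in these comparisons. No target passed in any of them in the edgeR fit to all codes. In FOXP3 against WT Treg, Nr4a3 was lower with DESeq2 (-1.17 ± 0.35, adjusted p = 0.0173, 7.31% of genes called). With limma it was also lower (-1.27 ± 0.28, adjusted p = 0.0113, 6.89%). With separate libraries Nr4a1, Nr4a2 and Nr4a3 passed there (7.61%). These targets were chosen after their values were seen. The 11 genes of the CREB family and its coactivators had a median of 0.00 in FOXP3 against LNGFR and 0.25 in WT Treg against LNGFR. In FOXP3 against WT Treg it was -0.19. There DESeq2 called the coactivators Crtc2 and Crtc3 lower in FOXP3 (adjusted p = 0.00884 and 0.00106), as did limma (0.00283 and 0.0046). Both were chosen after their values were seen.

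Genes with the pattern most like those of the 3 members with the smallest p were sought by Pearson correlation of log2 CPM over the 11 codes, among 8504 genes with a mean of at least 10 CPM. For Adora2a these were Tnfrsf1b (r = 0.97), which encodes a receptor for tumour necrosis factor, Kif3b (0.95) and Pear1 (0.95). Tnfrsf1b stood at 748.5 CPM in WT Treg, 462 CPM in FOXP3 and 185 CPM in LNGFR. For Crem they were Unc5cl (0.92), Matk (0.91), which encodes a kinase that acts on Src family kinases, and Epcam (0.90), an adhesion molecule. Matk was at 203 CPM in WT Treg and at 95.1 and 76.1 CPM in FOXP3 and LNGFR. For Ada they were Icam2 (0.96), Tm2d1 (0.96) and Sh3bgrl3 (0.95). Sh3bgrl3 stood at 2142 CPM in G1 and 172 CPM in E2, the codes with the highest and lowest level of Ada. For Pde3b, added after its values were seen, they were Akr1c12 (0.96), Acvr2a (0.95) and Baz1a (0.92). Over the 9 codes without E2 and G1 they were Acvr2a (0.98), Slc26a11 (0.98) and Prkd3 (0.97), so only Acvr2a was in both sets of 3. These r values describe codes of 3 groups that differ in depth and library quality, whose part in them was not tested.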

How the data were processed

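RNA of 22 libraries of sorted CD4+ T cells was read by Smart-seq with oligo(dT) priming, 18 PCR cycles and paired reads of 38 bp, per the labels' protocols. The authors deposited 1 table of raw read counts per gene symbol, with 55011 genes, 46911 of them with a count. The submitters' processing notes name STAR 2.7.3a, featureCounts, Subread 2.0.0 and mm10 (GRCm38). For annotation, strand setting and multi-mapping: not given in the sources used here. Libraries held 332570 to 5453375 counts.

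The 2 libraries of a code were summed. Genes passing edgeR's filterByExpr (15462) were fitted for all 3 groups together with TMM scaling and the robust quasi-likelihood test (R 4.3.3, edgeR 4.0.16), with Benjamini-Hochberg adjustment over all of them and a threshold of 0.05. SE is the size of the log2 fold change over the square root of F. The common biological coefficient of variation was 0.49. Alternatives used limma 3.58.1 and DESeq2 1.42.0, other filters and scaling, and left out codes or libraries. Exon lengths came from GENCODE M21 on GRCm38. The fits were tested on simulated counts, and how often they missed a true change is not reported here.

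The members and lists were chosen with earlier results of these data known. Named are the 10 members, Foxp3, listed genes that passed, the 2 most abundant genes per role and the 3 genes most alike to each of the 3 members with the smallest p.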

Additional observations from a re-analysis of the deposited data

Results flagged for a closer look

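Pde3b in FOXP3 code N3 was at 22.76 CPM, far from the other 4 FOXP3 codes, which lay between 7.55 and 10.2 CPM. Both libraries of N3 were high, at 25.5 and 20.03 CPM, and N3 also had the highest summed level of B-cell genes of any code. Whether that bears on Pde3b was not tested. The gap was checked for 13 groups of 5 codes, and chance alone sets apart about 1 in 20 such groups.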

How the results depend on the processing

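No paired analysis was possible because the groups share no code. All 10 genes passed the filter on low counts, so the permutation test planned for genes that fail it, and its other pseudocount, were not run. In this paragraph, counts of calls are in the order FOXP3 against LNGFR, WT Treg against LNGFR, FOXP3 against WT Treg. Among the 10 genes, from 0 in each, calls numbered 1 in the first without the low-count filter, 2, 4 and 2 with limma, 2, 6 and 3 without E2, G1 and N3, 2 and 1 in the last 2 with DESeq2, 3 and 1 in the last 2 with separate libraries, and 1 in WT Treg against LNGFR without the 3 weak libraries. Of all tested genes, the share called was 0.701% in the first without the filter, and 6.78%, 5.61% and 6.89% with limma. It was 10.7%, 7.66% and 7.42% without E2, G1 and N3, and 5.98% and 7.31% in the last 2 with DESeq2. With separate libraries it was 6.36% and 7.61% in the last 2, and without the weak libraries 2.07% in WT Treg against LNGFR. In the wider list, from 2, 1 and 1 of 82 tested, calls numbered 4, 7 and 13 of 100 without the low-count filter, 10, 14 and 13 of 82 with limma, 7, 10 and 11 of 75 with separate libraries, and 16, 17 and 12 of 80 without E2, G1 and N3. DESeq2 gave 7 and 9 of 82 in the last 2, leaving out the weak libraries gave 5 and 0 of 81 there, and RLE scaling or leaving out the Gm10800 family gave 1 in the first. Over all genes, from 84, 201 and 40, they were 329, 1000 and 3615 without the filter, 410, 766 and 1111 with DESeq2, 1048, 867 and 1066 with limma, 781, 791 and 947 with separate libraries, 184, 58 and 135 with only the 2 groups compared, 250, 318 and 66 without the weak libraries, and 1565, 1125 and 1090 without E2, G1 and N3. RLE scaling gave 63 in FOXP3 against WT Treg. Leaving out 1 code at a time gave 14 to 273, 37 to 299 and 4 to 1230 over all genes, 0 to 3, 0 to 4 and 0 to 3 in the list and 0 to 0, 0 to 1 and 0 to 0 among the 10. The causes of these shifts were not tested.

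Signs that turned were mostly those of values near 0. In FOXP3 against LNGFR, Entpd1 was at -0.0094 without E2, G1 and N3. Dpp4 was at -0.0032 with RLE, -0.0015 with DESeq2, -0.33 with limma, -0.0597 with separate libraries and -0.43 without E2, G1 and N3. Adcy7 was at -0.045 with RLE, -0.049 with DESeq2, -0.14 with limma, -0.0278 with separate libraries, -0.0165 with only 2 groups, -0.0801 without the weak libraries, -0.20 without E2, G1 and N3 and -0.0043 without the Gm10800 family. Pde4b was at 0.0028 and Crem at 0.14 without the low-count filter. In WT Treg against LNGFR, Entpd1 was at 0.25 without the weak libraries, and Pde4d at -0.17 without the filter, -1.01 with limma, -0.23 with separate libraries, -0.78 without the weak libraries and -1.03 without E2, G1 and N3. In FOXP3 against WT Treg, Pde3b was at 2.32 with limma, 2.82 without the weak libraries and 2.41 without E2, G1 and N3, and Pde4d at 0.0669, 0.0711 and 0.0454 under the same settings. Leaving out 1 code, the ranges that crossed 0 were, in FOXP3 against LNGFR, -0.19 to 0.25 for Adcy7, -0.0948 to 0.22 for Crem, -0.42 to 0.43 for Dpp4, -0.0740 to 0.68 for Entpd1 and -0.32 to 0.28 for Pde4b. In WT Treg against LNGFR they were -0.38 to 0.0097 for Adcy7, -0.49 to 0.28 for Entpd1 and -0.86 to 0.32 for Pde4d, and in FOXP3 against WT Treg -1.03 to 2.82 for Pde3b and -1.03 to 0.0759 for Pde4d. Depth limits E2 most, where Ada rested on 6 counts and Pde3b on 50.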
